A study of Mus musculus with 18 samples.

Results

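Loss of Pik3cd was examined in ovaries stimulated with pregnant mare serum gonadotropin (PMSG) by setting 3 arrays of Pik3cd-/- ovaries against 3 arrays of Pik3cd+/- ovaries, 6 of the 18 arrays of the study. Both groups were female mice 21 days old on a C57B6J/S129 background that had received a single intraperitoneal dose of 10 IU of PMSG 44 hours earlier. The other 12 arrays, used here only for comparison, were Pik3cd-/- and Pik3cd+/- ovaries that were untreated or had been exposed to E2 for 72 hours (3 injections of 0.03 ml, 24 hours apart). The Pik3cd+/- animals carry 1 minus allele themselves, so each difference is between animals with 2 minus alleles and animals with 1. The labels call the arrays biological replicates and do not say how the allele was made, whether animals were littermates or whether ovaries were pooled. Of 18193 genes represented by a probe set with a single symbol, 12711 passed a filter on low signal and were tested.

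The product of Pik3cd is p110 delta, one of the catalytic chains of the class I phosphoinositide 3-kinases (PI3K), and is best known from leukocytes. These kinases phosphorylate membrane phosphoinositides, which recruits AKT, and AKT in turn holds the FoxO transcription factors out of the nucleus. PMSG acts in the mouse mainly through the FSH receptor of granulosa cells, where cAMP and PI3K signalling drive growth of antral follicles and oestradiol synthesis, while in oocytes PI3K signalling governs the awakening of dormant follicles.

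The arrays were closely alike. Median signals of the 18 arrays lay between 48.4 and 50.9 units, and each PMSG array correlated at 0.981 to 0.993 on average with the others of its group. The genotype labels were borne out by the Pik3cd probe set with the largest difference, which read 20.4, 23.6 and 26.4 units in Pik3cd-/- arrays, against 69.8, 67.6 and 71.7 units in Pik3cd+/- arrays (log2 difference -1.29 ± 0.10, adjusted p = 1.3e-05 over all probe sets with limma). A second probe set of Pik3cd was also lower (-0.41 ± 0.08, adjusted p = 0.0266), whereas the other 4 probe sets of the gene, among them the brightest, were not called. The brightest stands for Pik3cd in the gene table and averaged 3126 ± 155 units in Pik3cd-/- and 3972 ± 759 units in Pik3cd+/- ovaries (SD, n = 3), a log2 difference of -0.33 (adjusted p = 0.229). Among the Pik3cd+/- arrays, array 1 had a summed signal of 14 oviduct epithelium genes of 5078 units, against 696 to 1013 units in the other 5 PMSG arrays, and array 3 had the highest signal of many granulosa genes, given with them below.

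After PMSG, 526 genes passed an adjusted p of 0.05 (4.14% of those tested; limma, two-sided, Benjamini and Hochberg over 12711 genes). Such genes are called here. Of these, 393 were higher in Pik3cd-/- ovaries (3.09%) and 133 lower (1.05%), with 60 and 32 of them changed by at least 2-fold, and the median log2 difference of all genes was 0.01. The rises were led by genes of the oocyte, and the falls held immediate early genes, FoxO targets and Bmp2. The count rested on all arrays: it was 82 without Pik3cd-/- array 2, 164 without Pik3cd-/- array 3, 260 without Pik3cd-/- array 1, 141 without Pik3cd+/- array 1, 203 without Pik3cd+/- array 2 and 384 without Pik3cd+/- array 3. With the same-numbered PMSG arrays treated as pairs in the model of all groups, 337 genes were called. This model is meant below by arrays paired. The same block in a model of the PMSG arrays alone gave 1066 calls. Of 61 called genes followed through the alternatives, 10 lost their call in the first of these models. In the second, 2 did (Akt2 and Cenpf).

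**Figure D1:**
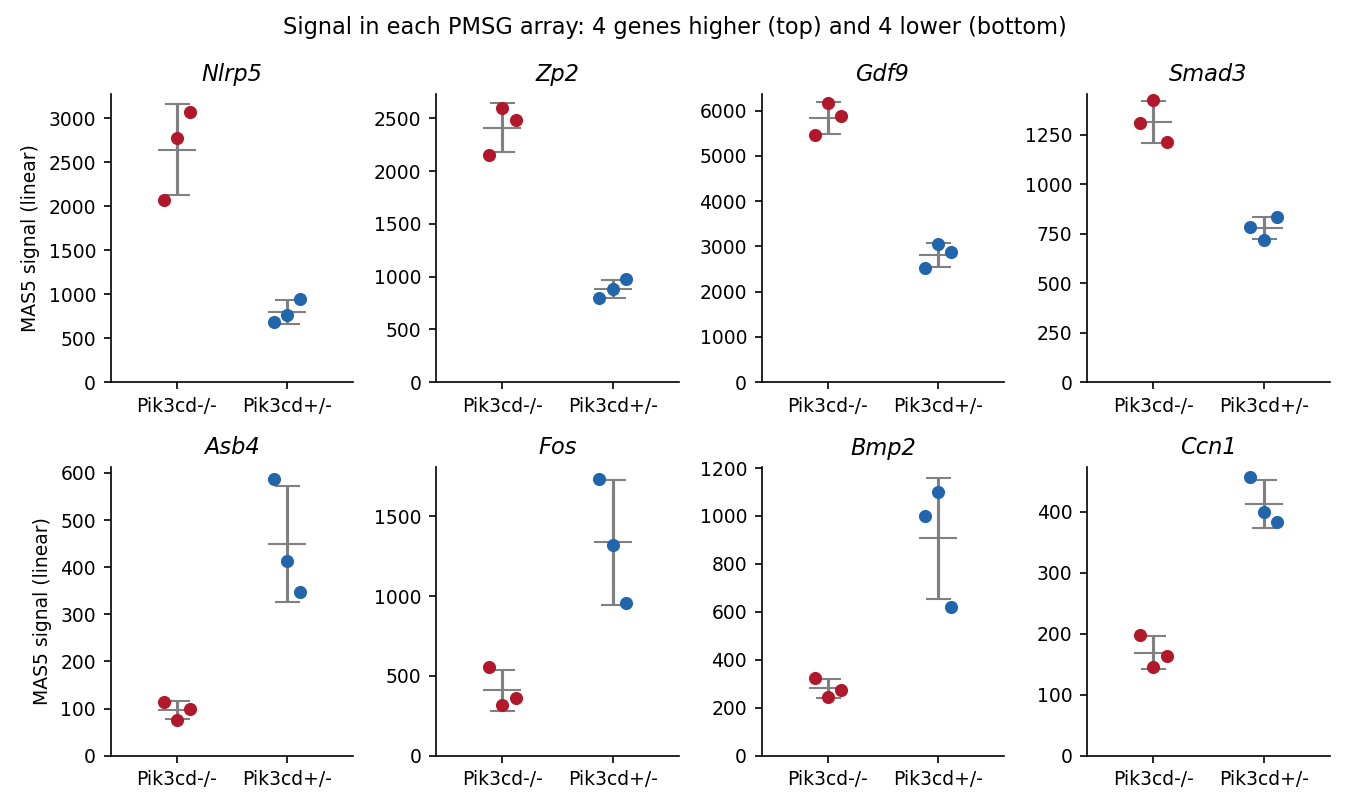
Signal (linear units, vertical axis from 0) of 8 genes in each array after PMSG, with Pik3cd-/- at the left and Pik3cd+/- at the right of each panel. Points are arrays, and the horizontal marks and bars are the mean and SD (n = 3). In all 8 panels the arrays of the genotypes do not overlap, with Nlrp5, Zp2, Gdf9 and Smad3 higher and Asb4, Fos, Bmp2 and Ccn1 lower in Pik3cd-/- ovaries. All 8 genes were called, and 525 of the 526 called genes do not overlap.

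Genes of the oocyte stood higher in Pik3cd-/- ovaries. Of 30 tested oocyte genes, 25 were called higher and 0 lower, against 3.09% of all genes called higher, and the median log2 difference of the list was 1.04. The summed signal of the list was 52632, 58520 and 56538 units in Pik3cd-/- arrays, against 23786, 27277 and 26149 units in Pik3cd+/- arrays. The lowest Pik3cd-/- array therefore stood far above the highest Pik3cd+/- array. In whole ovaries, more or larger oocytes among the other cells and more of these RNAs per oocyte cannot be told apart. The count of called members was 14 without Pik3cd-/- array 2, 15 without Pik3cd-/- array 3 and 16 without Pik3cd+/- array 1, while the median of the list stayed between 0.92 and 1.07 under all 19 alternative settings.

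The zona pellucida, the glycoprotein coat of the egg, was represented by 3 genes, all called higher. Zp2 gave 2148, 2596 and 2483 units in Pik3cd-/- arrays, against 796, 882 and 973 units in Pik3cd+/- arrays (log2 difference 1.44 ± 0.15, adjusted p = 0.000449). Zp3, another structural glycoprotein of the zona, averaged 3748 ± 213 units in Pik3cd-/- and 1581 ± 88.1 units in Pik3cd+/- ovaries (1.24 ± 0.16, adjusted p = 0.0014). Zp1, which cross-links the zona filaments, was higher by 1.30 ± 0.22 (adjusted p = 0.00628). Astl, the cortical granule protease that cleaves ZP2 after fertilisation, read 914, 927 and 831 units in Pik3cd-/- arrays, against 302, 362 and 352 units in Pik3cd+/- arrays, and was higher by 1.38 ± 0.23 (adjusted p = 0.006).

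The subcortical maternal complex, a store of maternal proteins beneath the egg membrane that the early embryo needs, showed the largest single rise. Nlrp5 gave 2073, 2777 and 3079 units in Pik3cd-/- arrays, against 688, 760 and 947 units in Pik3cd+/- arrays, a 3.27-fold difference (log2 1.71 ± 0.22, adjusted p = 0.00138). Its partner Ooep averaged 6138 ± 89.8 units in Pik3cd-/- and 2379 ± 264 units in Pik3cd+/- ovaries (1.37 ± 0.19, adjusted p = 0.00169). Padi6, needed for the cytoplasmic lattices of the egg, was higher by 1.36 ± 0.17, and the complex members Tle6 and Khdc3 were higher by 1.22 ± 0.21 and 1.06 ± 0.17, all 3 with adjusted p of 0.006 or less. The remaining genes among the 10 largest rises, clone names left out, were Dppa5a (1.38 ± 0.18), a KH-domain gene of germ and pluripotent cells, Mael (1.37 ± 0.25), which acts in transposon silencing in the germ line, Ccdc201 (1.34 ± 0.18) and Khdc1a (1.33 ± 0.17), another KH-domain gene.

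Transcription factors of the oocyte moved the same way. Nobox, a homeobox factor required for early follicle growth, read 729, 740 and 715 units in Pik3cd-/- arrays, against 287, 327 and 334 units in Pik3cd+/- arrays (1.18 ± 0.17, adjusted p = 0.00229). Lhx8 was higher by 1.04 ± 0.19 (adjusted p = 0.0085), Figla, which activates the zona genes, by 1.09 ± 0.28 (adjusted p = 0.0384), and Sohlh1 by 1.03 ± 0.28 (adjusted p = 0.0475). The last of these lay near the threshold. Of the germ line RNA regulators, the helicase Ddx4 was higher by 1.21 ± 0.16 (adjusted p = 0.00148) and Dazl by 0.89 ± 0.23 (adjusted p = 0.0405). Further maternal genes called higher were Dppa3 (1.23), Pou5f1 (1.02), the maintenance methyltransferase Dnmt1 (1.0), the meiotic kinase Mos (1.0), Zar1 (0.92), Btg4 (0.87), Bcl2l10 (0.78) and Oosp1 (0.61).

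Among genes by which oocyte and granulosa cells speak to each other, Gdf9, the oocyte growth factor that granulosa cells respond to, gave 5459, 6171 and 5887 units in Pik3cd-/- arrays, against 2525, 3053 and 2871 units in Pik3cd+/- arrays (1.05 ± 0.17, adjusted p = 0.00415). Its relative Bmp15 read 307, 416 and 461 units in Pik3cd-/- arrays, against 231, 298 and 220 units in Pik3cd+/- arrays, and was not called (0.63 ± 0.26, adjusted p = 0.209). Kit, the receptor tyrosine kinase of the oocyte, was called higher (0.89 ± 0.21, adjusted p = 0.0268), although the mean of its probe sets was not (0.63, adjusted p = 0.0979). Kitl, its granulosa ligand, averaged 2772 ± 153 units in Pik3cd-/- and 2158 ± 61.6 units in Pik3cd+/- ovaries without passing the test (adjusted p = 0.186), but passed in a model of the PMSG arrays alone with the replicate number as a block (adjusted p = 0.0172). The listed members not called were Bmp15, Nlrp4e, H1f8, Gpr3 and Kpna7, with log2 differences of 0.29 to 1.5, all above 0. The array groups of Nlrp4e and Kpna7 overlapped, and those of the other 28 members did not, against 16.7% of all tested genes that lay higher without overlap.

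The promoters of 4 oocyte genes with large rises are shown as a description. They are the 200 bases before the transcript start, from RefSeq on GRCm38.p6, with each E-box (CANNTG, the motif bound by basic helix-loop-helix factors such as FIGLA) in capitals. Zp3 lies on the plus strand at chr5:135979905-135980104, Nlrp5 (the second of 2 listed starts) on the plus strand at chr7:23385689-23385888, Ooep on the minus strand at chr9:78378589-78378788 and Padi6 on the minus strand at chr4:140742644-140742843.
Zp3: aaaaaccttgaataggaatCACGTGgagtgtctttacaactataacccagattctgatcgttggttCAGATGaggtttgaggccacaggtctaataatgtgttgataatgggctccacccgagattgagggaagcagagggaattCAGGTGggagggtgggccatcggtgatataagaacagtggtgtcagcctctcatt
Nlrp5: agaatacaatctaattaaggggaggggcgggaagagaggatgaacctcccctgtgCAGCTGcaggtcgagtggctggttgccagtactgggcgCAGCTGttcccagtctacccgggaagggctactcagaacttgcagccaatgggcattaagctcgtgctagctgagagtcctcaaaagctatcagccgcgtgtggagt
Ooep: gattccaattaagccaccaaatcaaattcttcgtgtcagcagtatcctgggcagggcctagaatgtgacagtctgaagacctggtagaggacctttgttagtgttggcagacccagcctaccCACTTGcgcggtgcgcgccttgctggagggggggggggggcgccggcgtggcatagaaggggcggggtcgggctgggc
Padi6: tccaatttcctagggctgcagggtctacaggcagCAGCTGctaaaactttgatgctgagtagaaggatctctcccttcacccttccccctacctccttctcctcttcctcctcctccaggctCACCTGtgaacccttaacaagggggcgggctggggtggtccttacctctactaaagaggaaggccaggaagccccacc
Zp3 holds 3 E-boxes in this window, Nlrp5 and Padi6 hold 2 each and Ooep holds 1. Over the 300 bases of each listed promoter, 27 of 29 promoters of 23 oocyte genes (93.1%) had at least 1 E-box on either strand, against 72.3% of all 32851 promoters in the table. The NOBOX motif TAATTG was in 6.9% of the oocyte promoters and 8% of all promoters. Both motifs were added after the data were seen, and a match is a string of letters, not a bound site. These shares describe the class of genes and do not bear on its difference between the genotypes.

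**Figure D2:**
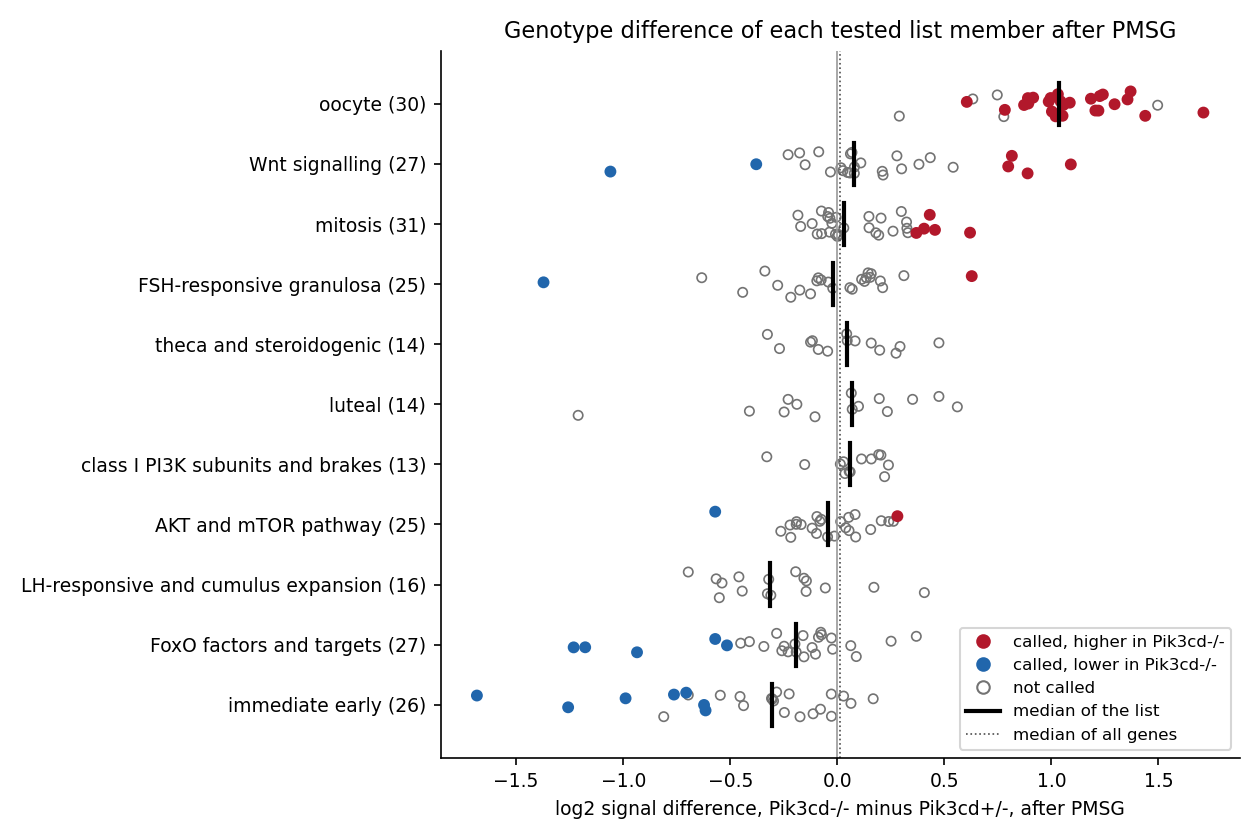
Log2 signal difference after PMSG (Pik3cd-/- minus Pik3cd+/-, horizontal axis) of each tested member of 11 gene lists, with the number tested in parentheses. Filled points were called (red higher, blue lower in Pik3cd-/-), open points were not, black bars are list medians and the dotted line is the median of all genes. The oocyte list lies to the right, with 25 of 30 members called, and the immediate early list has 7 called members, all to the left.

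Immediate early genes, which are transcribed within minutes to hours of a stimulus, were lower in Pik3cd-/- ovaries. Of 26 tested, 7 were called lower and 0 higher, against 1.05% of all genes called lower, and the median log2 difference was -0.31. The summed signal of the list was 14282, 12770 and 13266 units in Pik3cd-/- arrays, against 21725, 20368 and 17654 units in Pik3cd+/- arrays, without overlap. The count was 2 without Pik3cd-/- array 2, 4 without Pik3cd-/- array 3, 3 without Pik3cd+/- array 1 and 4 without Pik3cd+/- array 2.

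Fos, the AP-1 subunit that gives the class its best-known member, read 556, 315 and 362 units in Pik3cd-/- arrays, against 1737, 1318 and 957 units in Pik3cd+/- arrays, and was 3.21-fold lower (log2 -1.68 ± 0.25, adjusted p = 0.00308). Ccn1, a secreted matrix-associated protein induced by growth factors and by YAP, read 198, 145 and 163 units in Pik3cd-/- arrays, against 457, 399 and 382 units in Pik3cd+/- arrays (-1.26 ± 0.20, adjusted p = 0.00415). Its relative Ccn2, or connective tissue growth factor, averaged 2505 ± 403 units in Pik3cd-/- and 4963 ± 636 units in Pik3cd+/- ovaries (-0.99 ± 0.22, adjusted p = 0.0203). For each of these genes every Pik3cd-/- array lay below every Pik3cd+/- array, as for 11.1% of all tested genes. Of the 526 called genes, 525 had no overlap, so a call nearly always brings this.

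Smaller falls were seen in Klf6, a Krüppel-like factor (-0.76 ± 0.15, adjusted p = 0.0108), in Egr2, a zinc finger factor (-0.71 ± 0.16, adjusted p = 0.0266), and in the AP-1 subunits Fosl2 (-0.62 ± 0.14, adjusted p = 0.023) and Junb (-0.62 ± 0.12, adjusted p = 0.0112). The mean of the probe sets of Fosl2 was not called (-0.33, adjusted p = 0.0507). Egr2, 1 of the 7 lower calls, fell below the filter on low signal when Pik3cd+/- PMSG array 1 or 2 was left out. Its test thus leaned on the group where it was high, and its fold is given as a value only. Egr1, a zinc finger factor induced by LH and FSH, read 1798, 1437 and 1381 units in Pik3cd-/- arrays, against 3285, 2903 and 1600 units in Pik3cd+/- arrays. It was not called (-0.70 ± 0.22, adjusted p = 0.0915), but passed with the replicate number as a block in all groups (adjusted p = 0.012). Jun (-0.55, adjusted p = 0.0592) and Ier3 (-0.81, adjusted p = 0.0586) also missed the threshold. In a model of the PMSG arrays alone with that block, Egr1 (adjusted p = 0.028), Jun (0.0127), Ier3 (0.00617), Nr4a1 (0.0375) and Nr4a2 (0.042) were called lower. Of the other 16 members, Jund (0.17), Nr4a3 (0.06) and Egr3 (0.03) lay above 0 and the rest, Atf3, Btg2, Dusp1, Ier2, Ier5, Klf2, Klf4, Maff, Myc, Nr4a1, Nr4a2, Srf and Zfp36, between -0.45 and -0.03, none of them called.

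The promoters of 4 of the called immediate early genes are shown because the pathways that induce the class act through known promoter elements. They are the 150 bases before the start from RefSeq on GRCm38.p6, with capitals on each CRE core (TGACG on either strand, part of the cAMP response element bound by CREB) and each CArG box (the serum response factor motif). Fos lies on the plus strand at chr12:85473740-85473889, Ccn1 on the minus strand at chr3:145649986-145650135, Junb on the minus strand at chr8:84978749-84978898 and Egr2, the third of 5 listed starts, on the plus strand at chr10:67537719-67537868.
Fos: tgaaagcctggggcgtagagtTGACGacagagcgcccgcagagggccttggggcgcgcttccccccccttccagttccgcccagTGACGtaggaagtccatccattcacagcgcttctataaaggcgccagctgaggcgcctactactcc
Ccn1: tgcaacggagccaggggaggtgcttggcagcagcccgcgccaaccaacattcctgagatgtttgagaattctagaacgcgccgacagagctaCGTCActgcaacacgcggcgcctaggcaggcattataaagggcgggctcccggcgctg
Junb: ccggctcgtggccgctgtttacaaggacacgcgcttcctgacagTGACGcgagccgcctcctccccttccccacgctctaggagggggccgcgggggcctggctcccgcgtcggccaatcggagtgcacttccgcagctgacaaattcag
Egr2: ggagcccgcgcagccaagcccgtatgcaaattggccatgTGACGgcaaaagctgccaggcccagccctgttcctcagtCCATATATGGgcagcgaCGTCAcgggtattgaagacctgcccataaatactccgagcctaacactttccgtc
The CRE cores of Fos start at -129 and -66, those of Egr2 span -111 to -107 and -55 to -51 around a CArG box, and Ccn1 and Junb hold 1 each. Over the whole 300-base promoters, 17 of 27 promoters of 21 immediate early genes (63%) held a CRE core, against 20.8% of all promoters, and 6 of 27 (22.2%) held a CArG box, against 1.63%. The full CRE (TGACGTCA, which contains the core) was in 11.1%, against 1.79% of all promoters, and AP-1 (TGANTCA) in 0%, against 7.81%. The shares count promoters and not genes, so the listed starts of 1 gene are counted apart. Listed starts 2, 3, 4 and 5 of Egr2 each held a CArG box. Starts 3, 4 and 5 overlap and hold the same CArG box and the same CRE cores. These shares describe the class of genes and do not bear on which members fell.

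FoxO factors and their targets, the transcriptional arm that AKT restrains, were in part lower. Of 27 tested, 5 were called lower and 0 higher (median -0.19), against 1.05% of all genes called lower. Gadd45b, a stress-response gene of DNA repair and demethylation, read 228, 183 and 172 units in Pik3cd-/- arrays, against 517, 525 and 369 units in Pik3cd+/- arrays (-1.23 ± 0.23, adjusted p = 0.00997). Pdk4, the kinase that shuts off pyruvate dehydrogenase, averaged 314 ± 16.5 units in Pik3cd-/- and 735 ± 166 units in Pik3cd+/- ovaries (-1.18 ± 0.26, adjusted p = 0.0207). Gadd45a (-0.94 ± 0.20, adjusted p = 0.0203), the insulin receptor substrate Irs2 (-0.57 ± 0.11, adjusted p = 0.0107) and the CBP/p300 cofactor Cited2 (-0.52 ± 0.12, adjusted p = 0.0266) were lower as well. No member was called without Pik3cd-/- array 2, 1 without Pik3cd+/- array 1, 2 each without Pik3cd-/- array 3 or Pik3cd+/- array 2, and 3 without Pik3cd-/- array 1.

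The factors themselves did not pass the test in the model of all groups. Foxo1, the granulosa factor, read 3353, 2373 and 2648 units in Pik3cd-/- arrays, against 3893, 3753 and 3694 units in Pik3cd+/- arrays (-0.45 ± 0.15, adjusted p = 0.121). Its array groups did not overlap, and 11.1% of all tested genes lay lower without overlap. With only the PMSG arrays in the model and the replicate number as a block, Foxo1 was called lower (adjusted p = 0.0221). Foxo3, the guardian of dormant oocytes, averaged 899 ± 42.4 units in Pik3cd-/- and 754 ± 47.2 units in Pik3cd+/- ovaries (0.25 ± 0.09, adjusted p = 0.129). Of 31 promoters of the FoxO list, 19.4% held the FoxO motif GTAAACA, against 3.65% of all promoters.

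The other listed subunits of the kinase and its listed brakes gave no call on their brightest probe sets. Of 13 tested class I PI3K subunits and brakes, Pik3cd among them, 0 were called and the median was 0.06, with no call among Inpp4a (0.20), Inpp5d (0.22), Inppl1 (0.03), Phlpp1 (0.11), Phlpp2 (0.04), Pik3ap1 (0.24), Pik3ca (0.01), Pik3cg (0.19), Pik3r2 (0.06), Pik3r3 (0.16) and Pik3r6 (0.06). Pik3r1, the main regulatory subunit, differed by -0.15 on its brightest probe set and by -1.23 on its most variable one (adjusted p = 0.0154), so its probe sets disagree. The mean of the probe sets was called lower for Pik3r1 (-0.68, adjusted p = 0.0275) and for Pik3cd itself (-0.38, adjusted p = 0.00428). Of 25 AKT and mTOR pathway genes, Irs2 was lower and Akt2, the insulin-responsive AKT, was higher (0.28 ± 0.07, adjusted p = 0.0421, but 0.0683 with the arrays paired), beside 4.14% of all genes called either way. The mean of the Akt2 probe sets was not called (0.15, adjusted p = 0.165). Pik3ip1, an inhibitor of p110 subunits that was named after its values were seen, read 505, 317 and 283 units in Pik3cd-/- arrays, against 884, 824 and 637 units in Pik3cd+/- arrays (-1.10 ± 0.21, adjusted p = 0.0104).

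Growth factor signals between follicle compartments changed in both directions. Bmp2, a granulosa BMP ligand, read 324, 245 and 273 units in Pik3cd-/- arrays, against 998, 1100 and 622 units in Pik3cd+/- arrays, and was 3.09-fold lower (-1.63 ± 0.23, adjusted p = 0.00224). Its type I receptor Bmpr1b was also lower (-0.52 ± 0.14, adjusted p = 0.0454, and 0.057 with the arrays paired), although the mean of its probe sets was not called (-0.36, adjusted p = 0.234). Smad3, the intracellular carrier of activin and GDF9 signals, read 1307, 1423 and 1211 units in Pik3cd-/- arrays, against 785, 719 and 833 units in Pik3cd+/- arrays (0.75 ± 0.10, adjusted p = 0.00182). With Gdf9 these were the 4 called among 35 BMP and TGF-beta genes (2 higher, 2 lower, median -0.02), beside 4.14% of all genes called either way. Bmp2 and Smad3 kept their calls under all 19 alternatives, as did Nlrp5, Zp2 and Asb4, and the other 56 of 61 called genes followed through these alternatives lost theirs in at least 1.

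In the Wnt list, 4 of 27 tested genes were called higher and 2 lower (median 0.08), beside 3.09% and 1.05% of all genes. Wnt4, the ligand that supports female gonad identity and follicle growth, read 814, 1184 and 732 units in Pik3cd-/- arrays, against 398, 495 and 359 units in Pik3cd+/- arrays (1.09 ± 0.20, adjusted p = 0.00807). Axin2 and Nkd1, feedback targets that are induced by Wnt signalling, were higher by 0.80 ± 0.14 (adjusted p = 0.00644) and 0.82 ± 0.15 (adjusted p = 0.0093). Lgr5, an R-spondin receptor also listed as a surface epithelium marker, was higher by 0.89 ± 0.24 (adjusted p = 0.0486, and 0.0655 with the arrays paired). The mean of the Lgr5 probe sets was not called (0.45, adjusted p = 0.0712). The secreted antagonist Frzb read 86.5, 84.4 and 101 units in Pik3cd-/- arrays, against 202, 174 and 219 units in Pik3cd+/- arrays (-1.06 ± 0.23, adjusted p = 0.0179), and the transcription factor Tcf7l2 was lower (-0.38 ± 0.09, adjusted p = 0.0352). Without Pik3cd-/- array 2, 1 member was called higher.

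The largest fall of all was that of Asb4, which encodes a substrate adaptor of a ubiquitin ligase. It read 114, 76 and 99.8 units in Pik3cd-/- arrays, against 587, 414 and 348 units in Pik3cd+/- arrays, a 4.31-fold difference (-2.11 ± 0.17, adjusted p = 3e-05), and the mean of its probe sets gave -2.08. Grb14, an adaptor that inhibits the insulin receptor and is listed among FSH-responsive granulosa genes, read 3219, 1476 and 2635 units in Pik3cd-/- arrays, against 6395, 6268 and 5459 units in Pik3cd+/- arrays (-1.37 ± 0.23, adjusted p = 0.00628). The others among the 10 largest falls were Myf5 (-1.62 ± 0.25), a myogenic factor, Nlrp10 (-1.54 ± 0.25), an innate immune NLR protein, Mug1 (-1.46 ± 0.31), a protease inhibitor, Mlf1 (-1.45 ± 0.27), the sphingosine phosphate phosphatase Sgpp2 (-1.36 ± 0.30) and the laminin-related Ntn4 (-1.29 ± 0.25). Myf5, Nlrp10 and Mug1 were dim, with no Pik3cd-/- array above 51.7 units. Mug1 passed the filter on low signal only through Pik3cd+/- PMSG ovaries, and Nlrp10 only through Pik3cd+/- ovaries after PMSG or E2, so a gene like these was tested only because it was high there, and their folds are given as values only.

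Genes that mark the granulosa response to FSH were mostly not called. Of 25 tested, Akap12, a scaffold of protein kinase A, was higher (0.63 ± 0.13, adjusted p = 0.0147), Grb14 was lower, and the median was -0.02, beside 4.14% of all genes called either way. The summed signal of the list was 69732, 67072 and 71318 units in Pik3cd-/- PMSG arrays, against 64107, 68557 and 91976 units in Pik3cd+/- PMSG arrays, so that array 3 of Pik3cd+/- stood apart. Inhba, the activin beta A subunit, read 7372, 5493 and 5961 units in Pik3cd-/- arrays, against 4370, 4282 and 11149 units in Pik3cd+/- arrays, a log2 difference of 0.07 ± 0.66. The same array was highest for Inhbb (8788 units), Fshr (860 units), Hsd17b1 (5846 units), Fst (5422 units) and Grem1 (2478 units), and none of these genes was called. In untreated ovaries the list summed to 31742 to 48860 units in Pik3cd-/- and 51001 to 54584 units in Pik3cd+/- arrays, below all PMSG arrays of either genotype.

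The other panel genes of the ovary were not called either, with Inha at 0.11, Ccnd2 at 0.13, Esr1 at 0.12, Esr2 at -0.18, Amh at 0.00 and Igf1 at 0.04 on the log2 scale. Steroidogenic genes varied between arrays of 1 genotype. Star, which carries cholesterol into mitochondria, read 250, 465 and 669 units in Pik3cd-/- arrays, against 198, 2011 and 384 units in Pik3cd+/- arrays. Cyp11a1 differed by -0.09 ± 0.46, the theca enzyme Cyp17a1 by -0.04 ± 0.61 and Hsd3b1 by 0.08 ± 0.13. Of 14 theca and steroidogenic genes and 14 luteal genes, 0 were called in each, and of 22 cholesterol synthesis and uptake genes 0 were called with a median of -0.20. Sfrp4, a Wnt antagonist of the corpus luteum, ranged from 210 to 1230 units in Pik3cd-/- and from 179 to 2440 units in Pik3cd+/- arrays.

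Genes of the LH response and cumulus expansion lay lower without a call under the main settings. Of 16 tested, 14 were below 0, whereas 53.5% of all tested genes lay above 0. The median of the list was -0.32, and 0 passed the test. The closest was Ptx3, a matrix protein of the expanded cumulus, which read 114, 140 and 127 units in Pik3cd-/- arrays, against 195, 176 and 157 units in Pik3cd+/- arrays (-0.44 ± 0.12, adjusted p = 0.0552). Cited1 (-0.55), Ereg (-0.57), Pgr (-0.54), Adamts1 (-0.46), Runx1 (-0.32), Cebpb (-0.31), Cebpa (-0.19), Rgs2 (-0.16), Timp1 (-0.15), Nrip1 (-0.14) and Lif (-0.06) were not called, nor were Ptger2 (0.17) and Ptger4 (0.41), and Egr1 and Star are described above. With the arrays paired, Ereg, an EGF-like ligand, was called lower (adjusted p = 0.0366), and in a model of the PMSG arrays alone with that block so were Ereg (0.0158) and Adamts1 (0.0353). The summed signal of the list was 13016 to 14219 units in Pik3cd-/- arrays, against 15257 to 18039 units in Pik3cd+/- arrays.

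**Figure D3:**
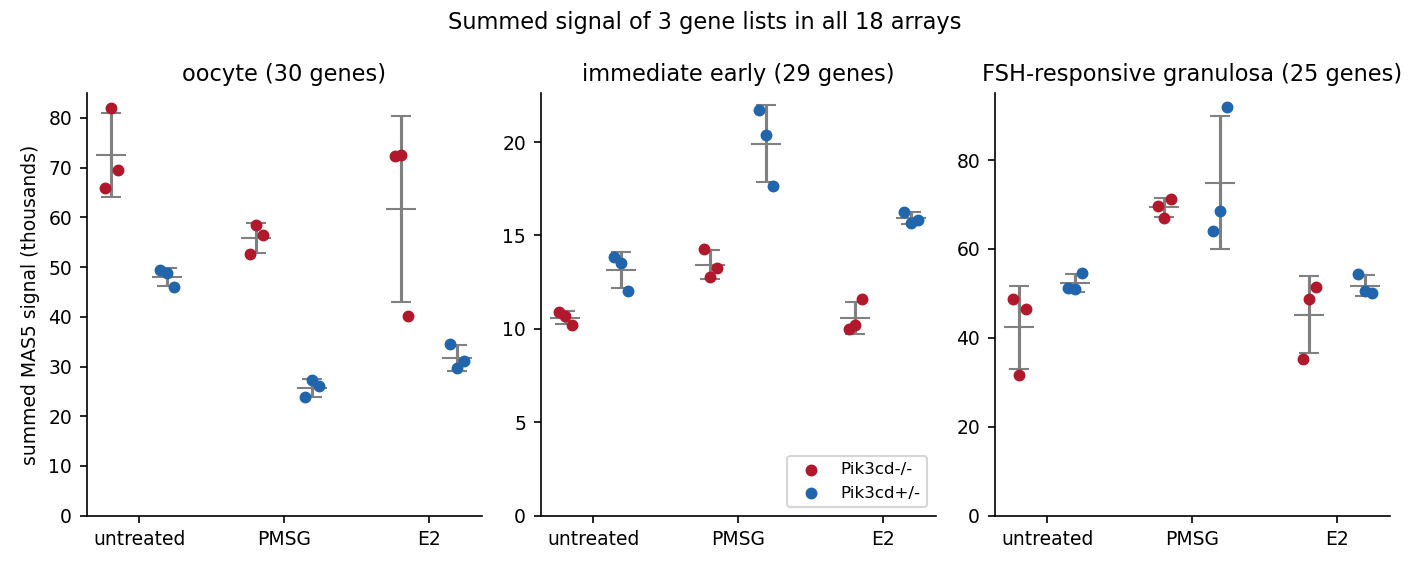
Summed linear signal (axis in kilo-units, from 0) of the oocyte, immediate early and FSH-responsive granulosa lists in all 18 arrays, with Pik3cd-/- (red) left of Pik3cd+/- (blue) in each state. Points are arrays, and marks and bars are the mean and SD (n = 3). After PMSG the oocyte sums of the genotypes do not overlap (52632 units or more in Pik3cd-/-, 27277 units or less in Pik3cd+/-), and array 3 of Pik3cd+/- stands apart in the granulosa list at 91976 units.

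Mitotic genes showed a few small rises. Of 31 tested, 5 were called higher and 0 lower, beside 3.09% and 1.05% of all genes, with a median of 0.03. They were the checkpoint kinases Bub1b (0.46 ± 0.09, adjusted p = 0.0125) and Ttk (0.37 ± 0.09, adjusted p = 0.0352), the passenger protein Birc5 (0.43 ± 0.11, adjusted p = 0.0328), the kinetochore protein Cenpf (0.41 ± 0.10, adjusted p = 0.0336) and the spindle pole protein Aspm (0.62 ± 0.14, adjusted p = 0.0215). With the arrays paired, Birc5 (adjusted p = 0.0536) and Cenpf (adjusted p = 0.0579) were not called. The mean of the probe sets was not called for Bub1b (0.27, adjusted p = 0.062), Cenpf (0.30, adjusted p = 0.154) or Aspm (0.15, adjusted p = 0.421). The most variable probe set was not called for Cenpf (adjusted p = 0.566) and gave -0.061 for Aspm. Of 28 replication genes, Uhrf1, a maintenance methylation factor that oocytes also store, was higher (0.71 ± 0.14, adjusted p = 0.0108), as was E2f1 (0.39 ± 0.10, adjusted p = 0.0461, and 0.0689 with the arrays paired). Neither the mean of the E2f1 probe sets (adjusted p = 0.125) nor the most variable one (adjusted p = 0.346) was called.

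Survival and matrix genes contributed 1 or 2 calls a list, and with 4.14% of all genes called the collagen and protease counts below lie near that share. Of 15 apoptosis and atresia genes, Igfbp5 was higher, at 5247, 7750 and 6532 units in Pik3cd-/- arrays, against 3654, 3374 and 2993 units in Pik3cd+/- arrays (0.95 ± 0.14, adjusted p = 0.00308), and so was the survival factor Bcl2 (0.53 ± 0.14, adjusted p = 0.0416, and 0.0616 with the arrays paired). Col18a1, the basement membrane collagen that gives rise to endostatin, was higher (0.76 ± 0.12, adjusted p = 0.00415), and the matrix protein Comp was lower (-1.24 ± 0.32, adjusted p = 0.0394) among 30 collagen and basal lamina genes. The versican-cleaving protease Adamts5 read 557, 407 and 643 units in Pik3cd-/- arrays, against 1129, 1004 and 1058 units in Pik3cd+/- arrays (-1.0 ± 0.21, adjusted p = 0.0166). Comp read 136, 121 and 140 units in Pik3cd-/- arrays, against 233, 205 and 708 units in Pik3cd+/- arrays, array 3 again being highest. Adamts5 was the only call among 20 matrix proteases and inhibitors.

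Further lists held 0 to 3 calls, beside 4.14% of all genes called either way. Among 26 genes of FSH and cAMP signalling, Akap12 was higher, and the cyclase Adcy9 (-0.51 ± 0.13, adjusted p = 0.0391) and the phosphodiesterase Pde7b (-0.64 ± 0.17, adjusted p = 0.0426) were lower, these 2 not with the arrays paired (adjusted p = 0.0638 and 0.0529). Wnt4 and Igfbp5 were the calls among 22 oestrogen targets, Kctd14 (0.58 ± 0.11, higher) and Bmpr1b (lower) those among 13 preantral granulosa genes, and Car9 (0.64 ± 0.16, higher, adjusted p = 0.0662 with the arrays paired) and Pfkp (-0.61 ± 0.14, lower) those among 21 glycolysis and hypoxia genes. The mean of the probe sets was not called for Kctd14 (adjusted p = 0.233), Pfkp (adjusted p = 0.0819) or Pde7b (adjusted p = 0.132). Nor was the most variable probe set of Kctd14 (adjusted p = 0.612) or Pde7b (adjusted p = 0.211). Herpud1 (-0.34 ± 0.09, adjusted p = 0.0475) was the call among 19 heat shock and unfolded protein genes. Neither the mean of its probe sets (adjusted p = 0.0703) nor the most variable one (adjusted p = 0.166) was called. The 13 MAPK feedback, 16 interferon response and 13 antigen presentation genes had 0 calls, with Dusp4 (-0.40), Irf9 (-0.41) and H2-Ab1 (0.50) closest to the threshold.

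Few markers of other cells of the ovary were called, beside 4.14% of all genes called either way. At that share, lists this short cannot show whether the amount of these cells differed. Angpt2 (-0.72 ± 0.17, adjusted p = 0.0268), a vessel-destabilising factor, was the only call among 20 endothelial genes, and Myocd (-0.99 ± 0.18, adjusted p = 0.0093), the cofactor of smooth muscle genes, the only one among 12 smooth muscle genes. The mean of the Angpt2 probe sets was not called (adjusted p = 0.0768). The contractile sums overlapped, at 21203 to 27019 units in Pik3cd-/- and 24762 to 29419 units in Pik3cd+/- arrays. Of 19 macrophage, 5 lymphocyte, 3 neutrophil, 18 stromal fibroblast, 7 oviduct, 8 adipocyte and 3 erythrocyte genes, 0 were called, the closest being Ms4a7 (-0.33), Cd4 (-0.10), Camp (0.13), Pdgfra (0.54), Dnah11 (-0.16), Pparg (-0.49) and Hba-a2 (-0.16). Gli1 (0.27) and Cdkn1a (-0.41) were closest among theca and luteal genes. In a model of the PMSG arrays alone with the replicate number as a block, Pdgfra (adjusted p = 0.0214) and Cdkn1a (adjusted p = 0.0308) were called. Macrophage sums were 6796, 5546 and 5123 units in Pik3cd-/- arrays, against 8411, 6752 and 4149 units in Pik3cd+/- arrays, with overlap. The part of these cells in the differences above was not tested.

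The genotype difference after PMSG was set beside those of untreated and E2-exposed ovaries, which come from other arrays. Untreated ovaries gave 277 calls (2.18%) and E2-exposed ovaries 2141 (16.8%). Leaving out untreated arrays moved the first count to 4 (Pik3cd-/- array 2), 676 (Pik3cd-/- array 3), 20, 1 and 86 (Pik3cd+/- arrays 1, 2 and 3). Leaving out E2 arrays moved the second to 646 and 1273 (Pik3cd-/- arrays 1 and 2), 748 and 793 (Pik3cd+/- arrays 1 and 2). With only its own arrays in the model the untreated count was 95 and the E2 count 100, and with a replicate block as well the E2 count was 0, so the shares below rest on the spread estimated over all groups. Of all genes, 0.842% were called higher and 1.34% lower untreated, and 4.85% higher and 12% lower after E2. Of the 393 genes higher after PMSG, 365 had the same sign untreated and 53 were called higher there (13.5%, or 49.5% of the 107 higher calls untreated), while 368 had the same sign after E2 and 221 were called higher there (56.2%, or 35.8% of 617). Of the 133 lower genes, 21 were called lower untreated (15.8%, or 12.4% of 170) and 88 after E2 (66.2%, or 5.77% of 1524). In all 3 states, 50 genes were called higher and 21 lower.

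The oocyte list had a median difference of 0.59 untreated, with 9 members called higher, of 1.04 after PMSG and of 0.94 after E2, with 27 called higher. In Pik3cd+/- ovaries its summed signal was 45896 to 49382 units untreated and 23786 to 27277 units after PMSG, and in Pik3cd-/- ovaries 65978 to 82002 units untreated and 52632 to 58520 units after PMSG. After E2 it was 72300, 72596 and 40171 units in Pik3cd-/- arrays, the third standing apart, against 29624 to 34530 units in Pik3cd+/- arrays. Immediate early genes had medians of -0.15 untreated with 2 lower calls, -0.31 after PMSG and -0.35 after E2 with 11 lower calls. Fos was lower in all 3 states (-1.37, -1.68 and -1.60), whereas Ccn1 differed by -0.16 untreated (adjusted p = 0.687) and -0.86 after E2 (adjusted p = 0.0122). FoxO list medians were 0.07 with 0 calls untreated and -0.19 after E2, where 9 members were called lower and 1 higher.

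**Figure D4:**
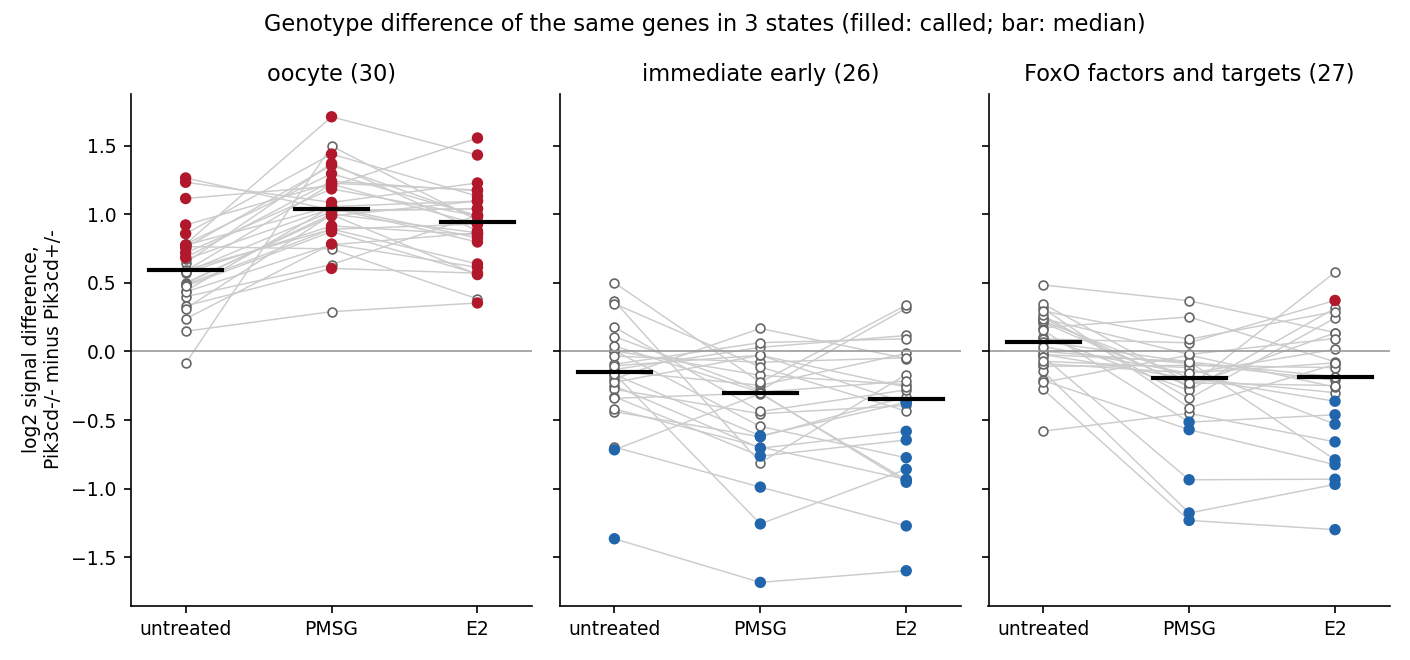
Log2 signal difference (Pik3cd-/- minus Pik3cd+/-, vertical axis) of each tested member of the oocyte, immediate early and FoxO lists in untreated, PMSG and E2 ovaries, with lines joining the same gene. Filled points were called (red higher, blue lower), open points were not, and bars are medians, which for oocyte genes are 0.59, 1.04 and 0.94 and for immediate early genes -0.15, -0.31 and -0.35.

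Under the main settings, no gene passed a test of whether the genotype difference after PMSG was itself different from that of untreated ovaries or from that after E2. The limma interaction gave 0 calls in each case, with 1195 genes at an unadjusted p under 0.05 against untreated and 1797 against E2, and smallest adjusted p-values of 0.0711 and 0.157. Asb4 came closest against untreated ovaries, with -2.11 after PMSG and -0.55 untreated (difference -1.56), together with Ddhd1, a phospholipase, at 0.50 after PMSG and -0.81 untreated (difference 1.31). Both passed when Pik3cd+/- PMSG array 3 was left out, and when the PMSG arrays were paired (adjusted p = 0.00988 for each). Under the main settings Lrp11 (-1.52), Pawr (-0.65) and Slc25a42 (0.92) followed. Against E2 the genes with the smallest p were Sema4d (0.99), Cenpf (0.75), Tnrc6a (0.67), Tug1 (0.53) and C1qbp (0.39), each higher after PMSG relative to E2 and none called.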

How the data were processed

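Whole-ovary total RNA was hybridised to Affymetrix 430 2.0 mouse arrays. What the authors deposited is a linear intensity for every probe set of each array, made with MAS5 per the submitters' processing notes, with the version and scaling not given in the sources used here. No further normalization was applied. Of 45101 probe sets, 64 controls, 9160 without a symbol and 932 with several were left out. The brightest of a gene's probe sets stood for it, named from the platform annotation, with 34741 of 34945 probe sets matched to RefSeq.

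The test used log2(signal + 8.58), where 8.58 is the 10th percentile of the table. A gene was kept if a group mean exceeded 5.87, the median log2 value. A limma 3.58.1 model (R 4.3.3) of all 6 group means with eBayes and a trend gave log2 differences ± SE with 12 residual and 3.67 prior degrees of freedom. The model was also run on simulated data with independent noise in each array, which does not cover arrays that deviate together. Folds are on the log2(signal + 8.58) scale and understate changes of dim genes. The 35 gene lists, the genes and the alternatives were chosen with earlier results of these data known. Named were the 10 largest rises and falls without overlap between arrays (clone names left out), up to 4 called members per list or else the closest one, all members of the immediate early, LH-response and PI3K lists, a panel of ovarian genes, and 5 genes per interaction.

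Same-numbered PMSG arrays deviated together from their group means (correlations 0.25, 0.25 and 0.30), so the number was also used as a block for these arrays, which was decided after the data were seen. All other PMSG pairs lay below 0. Deviations from a group mean sum to 0, so the sign of the other pairs is not separate evidence of pairing. In untreated and E2 arrays the number did not pair the arrays. Other pseudocounts, filters, normalization, probe set rules, models and left-out arrays were tried as alternatives. The number of arrays limits precision, and the p-values measure the spread between these arrays.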

Additional observations from a re-analysis of the deposited data

How the results depend on the processing

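Under the alternatives that kept all arrays, the 526 calls after PMSG numbered 400 to 612 (464 with a replicate block in all groups), except for 990 with only the PMSG arrays in the model (483 shared with the 526), 1066 with these arrays and a replicate block, and 337 with a block in the PMSG arrays alone. There were 23 with Pik3cd+/- arrays 1 and 3 left out together. These last alternatives, the PMSG block and the joint omission, were chosen after seeing the data. Leaving out 1 array gave 82 to 384. The oocyte list then had 14 to 19 higher calls and the immediate early list 2 to 9 lower calls, the FoxO list 0 to 4 and the Wnt list 1 to 3. With Pik3cd+/- array 2 alone these were 2, 1, 0 and 0. With only the PMSG arrays in the model the Wnt list had 7 calls, and with the block as well it had 7 and the immediate early list 12. The untreated count of 277 was 425 with quantile normalization and 95 with only its own arrays, and 1 to 676 with 1 array left out. The E2 count of 2141 was 100 with only its own arrays, 0 with these and a replicate block, and 646 to 2967 with 1 array left out. The interaction with the untreated state had 2 calls with a pseudocount of 64, 3 with quantile normalization, 3 with PMSG pairs, 5 with Pik3cd+/- array 2 alone and 0 to 4 with 1 array left out. That with E2 had 3 with Pik3cd+/- array 2 alone and 0 when single arrays were left out. Aspm was reversed with the most variable probe set (-0.061). Of 61 named called genes, 56 lost the call under at least 1 of 19 settings. Fewer arrays leave less power, and other causes were not tested. Blocks in all groups changed no other count by over 1.5 times. Dim genes near the filter have the least certain folds.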

Other observations

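Families of genes that share a name were counted after their values were seen, so the counts are descriptions. Of 12 tested Nlrp genes, 6 were called higher in Pik3cd-/- ovaries after PMSG, against 3.09% of all genes called higher. Of these, 2 (Nlrp5 and Nlrp14) are in the oocyte list above and 4 are not, Nlrp9b (0.92), Nlrp4f (0.92), Nlrp4b (0.84) and Nlrp4c (0.64). Nlrp10 lay lower (-1.54), beside 1.05% of all genes called lower. It passed the filter on low signal only through Pik3cd+/- ovaries, so its fold is given as a value only. Of 17 Fbxw genes, 8 were called higher, from Fbxw14 (0.46) to Fbxw13 (1.02), and 0 lower. Of 6 Oas1 genes, Oas1c (1.19), Oas1e (1.13) and Oas1h (1.09) were called higher. Of 4 Khdc genes, Khdc1a, Khdc1b (0.88) and Khdc3 were called higher. Of 6 Tudor domain genes, Tdrd1 (0.77) and Tdrd3 (0.42) were called higher and Tdrd5 (-0.56) lower. Of 40 Slc25 mitochondrial carriers, 3 were called higher and 1 lower, with a median of 0.01. Several of these families hold close copies, and cross-hybridisation between them was not tested. A list of meiotic chromosome genes was also chosen after the values were seen. Of 13 tested, 7 were called higher and 0 lower, beside 3.09% and 1.05% of all genes. They were Terb1 (0.99), which tethers telomeres, the synaptonemal complex genes Sycp2 (0.97), Syce1 (0.89) and Syce2 (0.67), the cohesin Smc1b (0.90), Brdt (0.77) and Hsf2bp (0.76). Tex14 went the other way, lower without overlap but not called (-0.98, adjusted p = 0.117). It was called lower untreated (-1.44, adjusted p = 0.0377) and after E2 (-1.44, adjusted p = 0.0122). Mlh3 lay at -0.03, and the other members not called lay above 0.

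Among the 40 tested genes nearest Pik3cd on chromosome 4, 20 on each side, 1 was called higher after PMSG (Cenps, 0.74) and 2 lower (Spsb1, -0.58, and Slc25a33, -0.47), beside 4.14% of all genes called. After E2, 2 were higher and 6 lower, beside 16.8% of all genes, so the counts lie near those shares. On the mixed background, an effect of linked alleles cannot be told apart from that of Pik3cd loss.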
